A study of Mus musculus with 17 samples.

Results

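Integrins are the cell surface receptors through which heart cells hold on to the extracellular matrix, and the mRNA of 10 integrin chains (Itga1, Itga5, Itga6, Itga7, Itga8, Itga9, Itgav, Itgb1, Itgb3 and Itgb5) was followed in the left ventricle. They were chosen by gene symbol, with earlier results of these data known, and all 10 are among the 21798 genes listed in the deposited expression table. Bulk polyA RNA-sequencing was performed on left ventricular apex of male C57Bl6/J mice that had undergone transverse aortic constriction (TAC), which narrows the aorta so that the left ventricle pumps against a raised pressure, or Sham surgery at 7 to 8 weeks of age. From 1 week after surgery the mice received 6 gavages over 2 weeks of either 29P at 50 μg/kg, an orally available prodrug of an RGD-mimetic ligand with a preference for integrin αvβ3, or saline vehicle (Veh), and hearts were taken 3 weeks after surgery. There were 5 Sham Veh libraries, 3 of Sham 29P, 3 of TAC Veh and 6 of TAC 29P. A further TAC Veh library had been left out by the authors because it clustered with Sham mice. Nothing in these groups is genetically altered, and the tissue holds every cell type of the ventricle, so that more cells of a type and more RNA per cell cannot be told apart.

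An integrin is a pair of 1 α chain and 1 β chain, and the pairing sets which matrix protein is bound. The β1 chain (Itgb1) pairs with most of the α chains followed here: α1 (Itga1) for collagens, α6 (Itga6) and α7 (Itga7) for laminins, α5 (Itga5) and α8 (Itga8) for ligands that carry the RGD motif such as fibronectin, and α9 (Itga9) for tenascin-C, osteopontin and related proteins. The αv chain (Itgav) pairs with β3 (Itgb3), β5 (Itgb5) and others, and its receptors bind vitronectin, fibronectin, osteopontin and latent TGF-β. In the heart, β1 and α7 are the main chains with which adult cardiomyocytes hold the laminin of their basement membrane, while α1, α5, α8 and αv are also well known from fibroblasts, endothelial and smooth muscle cells.

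The 10 genes lie on 8 chromosomes of mm10 (GENCODE vM21 coordinates, which share their starts with the deposited table). Itga6, Itga8 and Itgav are all on chromosome 2, at 71745616-71858416 (plus strand), 12106632-12301922 (minus) and 83724397-83806916 (plus). The other α chains are on chromosome 13 at 114953096-115101964 (Itga1, minus), chromosome 15 at 103344286-103366763 (Itga5, minus), chromosome 10 at 128933818-128958282 (Itga7, plus) and chromosome 9 at 118606690-118901003 (Itga9, plus). The β chains are on chromosome 8 at 128685654-128733200 (Itgb1), chromosome 11 at 104608000-104670476 (Itgb3) and chromosome 16 at 33829665-33949338 (Itgb5), all on the plus strand. Exons of Itga1, Itga8 and Itgav overlap those of Gm49395 (685 bases, same strand), E030013I19Rik (372 bases, antisense) and Gm13684 (634 bases, opposite strand), which were listed at a mean CPM of 0.441, 0.386 and 0.0331. The strand setting of the counting is not given in the sources used here, so reads in these overlaps cannot be assigned with certainty.

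RefSeq promoter windows (GRCm38.p6) were at hand for 7 of the 10 genes, and the 250 bases before the annotated start are shown for 3 of them. Itga5 and Itgb5 are shown because their mRNA was higher after TAC under each scaling of the libraries described below, and Itgb1 because it is the shared partner chain and stood highest. They lie at chr15:103366792-103367041 (Itga5, minus strand), chr16:33829415-33829664 (Itgb5, plus strand) and chr8:128685404-128685653 (Itgb1, plus strand). Capitals mark the GC box, GGGCGG on either strand.
Itga5: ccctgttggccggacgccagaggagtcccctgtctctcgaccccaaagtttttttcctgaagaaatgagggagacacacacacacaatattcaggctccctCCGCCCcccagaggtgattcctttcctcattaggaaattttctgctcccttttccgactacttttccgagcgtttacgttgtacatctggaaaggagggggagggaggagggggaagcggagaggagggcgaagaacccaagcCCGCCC
Itgb5: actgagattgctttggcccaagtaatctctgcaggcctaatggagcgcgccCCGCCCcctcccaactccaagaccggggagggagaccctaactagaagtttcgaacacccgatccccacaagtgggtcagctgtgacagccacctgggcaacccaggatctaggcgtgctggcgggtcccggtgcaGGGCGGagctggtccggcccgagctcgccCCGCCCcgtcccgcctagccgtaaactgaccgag
Itgb1: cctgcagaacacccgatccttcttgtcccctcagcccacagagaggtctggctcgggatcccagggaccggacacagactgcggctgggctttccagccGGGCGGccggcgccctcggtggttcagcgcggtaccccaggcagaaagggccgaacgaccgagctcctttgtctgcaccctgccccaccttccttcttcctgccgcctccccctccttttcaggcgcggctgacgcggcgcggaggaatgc
The GC box was present in these 3 windows, with 2, 3 and 1 copies, and in none of the windows of Itga1, Itga8, Itga9 and Itgav, against 33.0% of 32536 promoter windows of the same length. GC content was 55.6% for Itga5, 65.2% for Itgb5 and 68.0% for Itgb1, against a median of 52.4%. TATAAA was in none of the 7 windows (12.3% of all windows), nor was the AP-1 motif TGANTCA (6.7%). The TEAD motif GGAATG was in the Itgb1 window alone (12.6% of all windows), and all motifs were searched on both strands. The Itga9 window lies at a start inside the gene and is not shown.

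The libraries held an estimated 14.2 to 23.8 M reads (median 20.4 M). Mitochondrial transcripts took a smaller share of the reads after TAC, 26.1 ± 2.22% (SD, n = 3) in TAC Veh against 33.5 ± 3.64% (SD, n = 5) in Sham Veh, and 27.3 ± 1.69% (n = 6) in TAC 29P against 35.6 ± 3.83% (n = 3) in Sham 29P. Across the 16218 genes tested, the median gene changed by 0.35 on the log2 scale in TAC Veh against Sham Veh and 0.37 in TAC 29P against Sham 29P. Scaling with TMM factors (trimmed mean of M-values, which centre the bulk of the genes) moved these medians by -0.32 and -0.35. Each change after TAC is therefore given from the deposited CPM and again after TMM scaling. The summed CPM of 5 atrial cardiomyocyte genes was 2642 and 2117 in Sham Veh libraries 19 and 20 and 1574 in TAC 29P library 18, but at most 5.96 in the other 14, and these 3 libraries carry consecutive numbers. Sham 29P library 14 had the lowest depth. Ventricular cardiomyocyte markers were high in every library, from 31857 to 47562 summed CPM over 7 genes.

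The β1 chain stood far above its partners. Scaled by exon length, Itgb1 had a mean of 102 ± 6.02 CPM per kb in Sham Veh (SD, n = 5), followed by Itgb5 with 17.3 ± 3.41, Itga6 with 9.88 ± 1.47, Itga7 with 8.65 ± 2.07, Itga5 with 7.74 ± 1.90 and Itga9 with 6.37 ± 1.74. Itga1 (3.79 ± 0.972), Itgav (2.36 ± 0.292), Itga8 (0.910 ± 0.433) and Itgb3 (0.542 ± 0.222) stood lowest. Itgb1 was first and Itgb5 second in each of the 17 libraries. Among neighbours in this order, the Sham Veh ranges of Itgb1 and Itgb5, of Itgb5 and Itga6, and of Itgav and Itga8 did not overlap, while those of Itga6, Itga7, Itga5, Itga9 and Itga1, of Itga1 and Itgav, and of Itga8 and Itgb3 overlapped from each gene to the next. In TAC the order within the middle changed: over the 9 TAC libraries the mean CPM per kb was 14.7 ± 1.96 for Itga9, 14.3 ± 1.57 for Itga6, 13.6 ± 2.70 for Itga5 and 11.8 ± 1.64 for Itga7. Itgb3, the chain that 29P is meant to address together with αv, held an estimated 10 to 156 reads per library, while Itgb1 held 6505 to 12935.

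**Figure D1:**
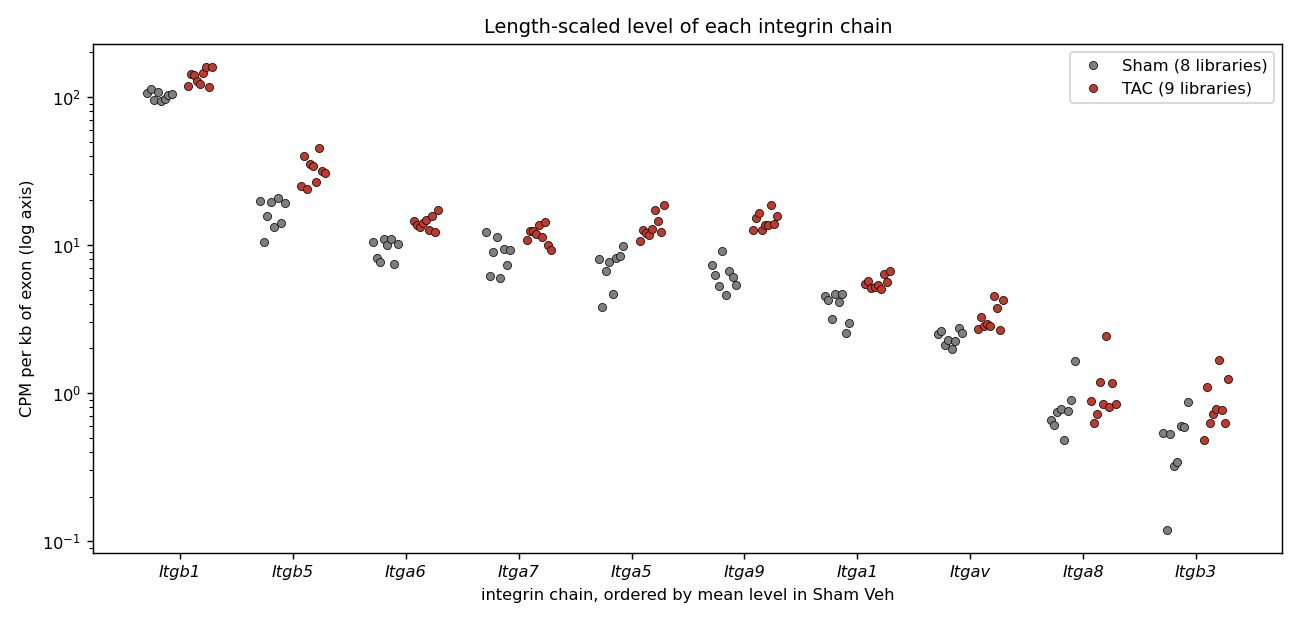
Length-scaled level (CPM per kb of exon, log axis) of the 10 integrin chains in 8 Sham (grey) and 9 TAC (red) libraries, 1 point per library, ordered by the Sham Veh mean. Itgb1 lies near 100 and Itgb5 second in every library, Itga8 and Itgb3 lie near or under 1, and the red and grey points of Itga9 do not overlap.

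After TAC, most of the integrin chains were higher, in Veh and in 29P mice. In TAC Veh against Sham Veh, 7 of the 10 chains rose with a limma adjusted p of 0.05 or less, against 22.5% of all genes tested that were called higher: Itga1, Itga5, Itga6, Itga9, Itgav, Itgb1 and Itgb5. In TAC 29P against Sham 29P, 6 of 10 rose, against 31.4% of all genes: Itga5, Itga6, Itga9, Itgb1, Itgb3 and Itgb5. None fell in either comparison (1.91% and 1.12% of all genes fell). At the unadjusted p of 0.05 that the study used, 7 of 10 rose in Veh mice and 9 of 10 in 29P mice, against 37.4% and 43.5% of all genes. The means in these comparisons share no library, but limma estimated the spread of each gene from all 17 libraries. Itga5, Itga6, Itga9, Itgb1 and Itgb5 rose in both, as did 15.6% of all genes. After TMM scaling 3 chains remained in each comparison, Itga5, Itga9 and Itgb5, against 4.22% and 5.86% of all genes called higher, and 2.29% higher in both. The median log2 fold change of the 10 chains was 0.68 in Veh and 0.62 in 29P mice, or 0.36 and 0.27 after TMM scaling. The count in Veh mice rested in part on TAC Veh library 2, since without it Itga9 alone was called. For 29P mice, with the run of the numbers in the sample descriptions as a covariate 3 chains were called (Itga5, Itga6 and Itga9).

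**Figure D2:**
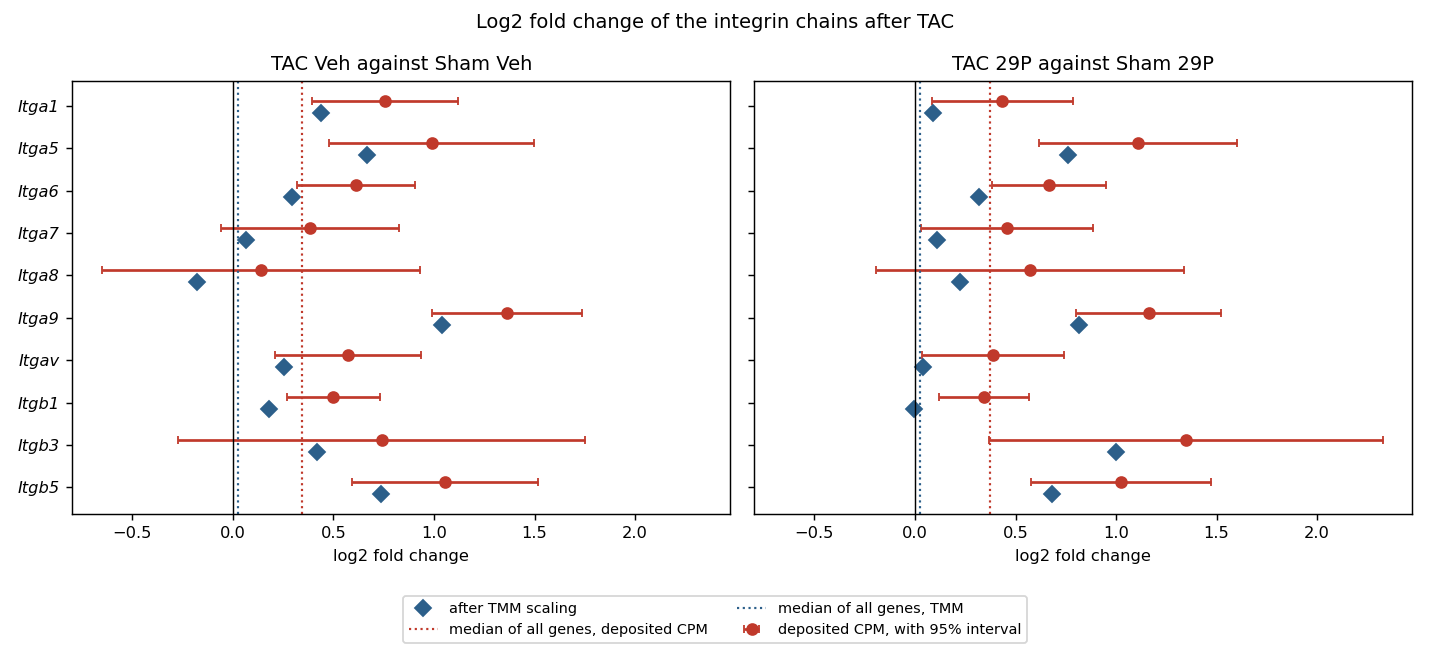
Log2 fold change after TAC (x axis) of the 10 integrin chains (y axis) in Veh (left) and 29P mice (right), from the deposited CPM (red circles with 95% intervals) and after TMM scaling (blue diamonds); dotted lines mark the median of all genes. Itga9, Itga5 and Itgb5 lie well to the right of both medians, while Itgb1 after TMM scaling lies at 0.18 in Veh and at 0.00 in 29P mice.

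Itga9, the α chain of the tenascin-C receptor α9β1, had the largest rise of the 10 in Veh mice. Its CPM in Sham Veh was 70.3, 35.3, 51.7, 46.6 and 41.2, and in TAC Veh 143, 107 and 120. Every TAC Veh library lay above every Sham Veh library. It rose 2.57-fold, a log2 change of 1.36 with a standard error (SE) of 0.18 (limma adjusted p = 0.000481), and by 1.04 after TMM scaling (adjusted p = 0.000853). In 29P mice, Sham values were 56.6, 48.4 and 40.6, and TAC values ran from 97.1 to 127 with a median of 105. The groups were again apart, and the rise was 1.16 (SE 0.17, limma adjusted p = 0.000914), or 0.82 after TMM scaling (adjusted p = 0.00426). The numbers in the sample descriptions fall into 4 runs, and within these TAC exceeded Sham by 1.10 to 1.56 on the log2 scale, and by 0.75 to 1.24 after TMM scaling.

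Itga5, the fibronectin receptor chain, was 37.6, 23.0, 40.4, 41.7 and 48.2 CPM in Sham Veh and 71.3, 60.5 and 92.3 CPM in TAC Veh. In Sham 29P it was 39.8, 18.9 and 32.8 CPM, and in TAC 29P it ran from 52.6 to 85.3 with a median of 61.0. Neither pair of groups overlapped, although library 14 was the lowest of all 17 and library 18 the highest of its group. On the log2 scale Itga5 rose by 0.99 (SE 0.24, limma adjusted p = 0.0111) in Veh and 1.11 (SE 0.23, adjusted p = 0.00476) in 29P mice. After TMM scaling it was 0.67 (adjusted p = 0.0440) and 0.76 (adjusted p = 0.0207). In Veh mice the limma adjusted p without TAC Veh library 2 or 16 reached at most 0.0597. TAC exceeded Sham in each of the 4 runs under both scalings.

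The laminin receptor chains differed in size of change. Itga6 was 99.7, 90.2, 98.3, 66.8 and 91.1 CPM in Sham Veh and 143, 111 and 156 CPM in TAC Veh, with no overlap, and rose by 0.61 on the log2 scale (SE 0.14, limma adjusted p = 0.00800). In 29P mice it rose by 0.67 (SE 0.14, adjusted p = 0.00406). After TMM scaling these were 0.29 and 0.32 (adjusted p = 0.145 and 0.0937), so the call rested on the deposited totals. Itga7, the α chain best known from muscle, spanned 48.1 to 91.6 CPM in Sham Veh and 75.3 to 117 CPM in TAC Veh, ranges that overlap. Its log2 fold change was 0.38 (limma adjusted p = 0.177) in Veh and 0.46 (adjusted p = 0.0894) in 29P mice, or 0.06 and 0.11 after TMM scaling, near the median of all genes. In 29P mice the value hung on single Sham libraries, with 0.69 (adjusted p = 0.0159) without library 4 and 0.20 (adjusted p = 0.522) without library 14. In Veh mice it was 0.19 without TAC Veh library 2.

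Itga1, the collagen receptor chain, was 86.4, 76.1, 86.8, 47.3 and 55.6 CPM in Sham Veh and 119, 105 and 124 CPM in TAC Veh. The lowest Sham Veh values are those of libraries 19 and 20, which held the atrial transcripts. Its rise on the log2 scale was 0.76 (SE 0.17, limma adjusted p = 0.00805), or 0.44 after TMM scaling (adjusted p = 0.113). With TMM scaling and without the 3 libraries with atrial transcripts, the rise was 0.16 (adjusted p = 0.501). In 29P mice it was 0.43 (SE 0.17, adjusted p = 0.0543), just outside the threshold, and 0.09 after TMM scaling. It passed without Sham 29P library 4 (0.53, adjusted p = 0.0348) or Sham Veh library 5, 13 or 19, and was 0.28 (adjusted p = 0.269) without Sham 29P library 15. In the deposited values it also passed without the libraries with atrial transcripts (0.45, adjusted p = 0.0141). Itga8, whose β1 receptor binds nephronectin and other RGD ligands, was low throughout, from 3.54 to 17.8 CPM. Its highest values were 17.8 CPM in TAC 29P library 18 and 12.04 CPM in Sham Veh library 20, both with atrial transcripts. Its log2 change was 0.14 (limma adjusted p = 0.794) in Veh and 0.57 (adjusted p = 0.226) in 29P mice, and -0.18 and 0.23 after TMM scaling.

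Itgb1, the common β chain, was 442, 383, 396, 422 and 430 CPM in Sham Veh and 645, 477 and 649 CPM in TAC Veh. In Sham 29P it was 437, 459 and 387 CPM, and in TAC 29P it ran from 486 to 588 with a median of 548. The groups did not overlap, and Itgb1 rose by 0.50 on the log2 scale (SE 0.11, limma adjusted p = 0.00688) in Veh and 0.34 (SE 0.11, adjusted p = 0.0250) in 29P mice. After TMM scaling it was 0.18 (adjusted p = 0.349) in Veh and -0.0040 (adjusted p = 0.986) in 29P mice. The 29P call was also lost without Sham 29P library 14 or 15 or TAC 29P library 3 (adjusted p up to 0.107). Itgb1 thus rose as a share of all reads, by close to the median of all genes in 29P mice.

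The chains of the αv receptors moved by unequal amounts. The ligand formed from 29P prefers αvβ3 over αvβ5, and also over α5β1, the receptor of Itga5 and Itgb1. Itgav was 24.6, 21.4, 24.0, 29.5 and 27.3 CPM in Sham Veh and 40.3, 28.9 and 45.4 CPM in TAC Veh, where library 12 lay within the Sham range. Itgav rose by 0.57 on the log2 scale (SE 0.17, limma adjusted p = 0.0261), or 0.25 after TMM scaling (adjusted p = 0.370), and the call was lost without Sham Veh library 6 or TAC Veh library 2 or 16 (adjusted p up to 0.128). In 29P mice it was 0.39 (SE 0.17, adjusted p = 0.0798), or 0.04 after TMM scaling. Itgb5 was 69.2, 47.0, 73.2, 49.7 and 67.8 CPM in Sham Veh and 160, 113 and 109 CPM in TAC Veh. In Sham 29P it was 70.5, 37.0 and 56.1 CPM, and in TAC 29P it ran from 85.5 to 142 with a median of 108. Its groups did not overlap in either comparison. Itgb5 rose by 1.06 on the log2 scale (SE 0.22, limma adjusted p = 0.00539) in Veh and 1.03 (SE 0.21, adjusted p = 0.00445) in 29P mice, and after TMM scaling 0.74 (adjusted p = 0.00990) and 0.68 (adjusted p = 0.0144). In 29P mice the call after TMM scaling rested on Sham 29P library 14, both for Itgb5 (0.51 without it, adjusted p = 0.123) and for Itga5 (0.53, adjusted p = 0.173).

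Itgb3, the β chain of the αvβ3 receptor, was the scarcest of the 10. It was 1.89, 2.01, 3.52, 3.48 and 5.09 CPM in Sham Veh and 4.54, 3.72 and 7.36 CPM in TAC Veh. In Sham 29P it was 3.18, 0.705 and 3.11 CPM, and in TAC 29P it ran from 2.86 to 9.82 with a median of 4.43. The groups overlapped in both comparisons. On the log2 scale the Veh difference was 0.74 (SE 0.48, 95% interval -0.27 to 1.75, limma adjusted p = 0.250), or 0.42 after TMM scaling. In 29P mice it was 1.35 (SE 0.47, adjusted p = 0.0371), or 0.9995 after TMM scaling (adjusted p = 0.134). This call rested on Sham 29P library 14, which held about 10 reads of Itgb3: without it the difference was 0.63 (adjusted p = 0.327). It was also lost without the 3 libraries with atrial transcripts (1.14, adjusted p = 0.0617), of which TAC 29P library 18 had the highest Itgb3 value of all, and without TAC 29P library 3, 9, 11 or 18 singly. An exact permutation test over the libraries (two-sided) gave a p of 0.161 in Veh and 0.0476 in 29P mice, where the smallest values possible are 0.0179 and 0.0119.

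**Figure D3:**
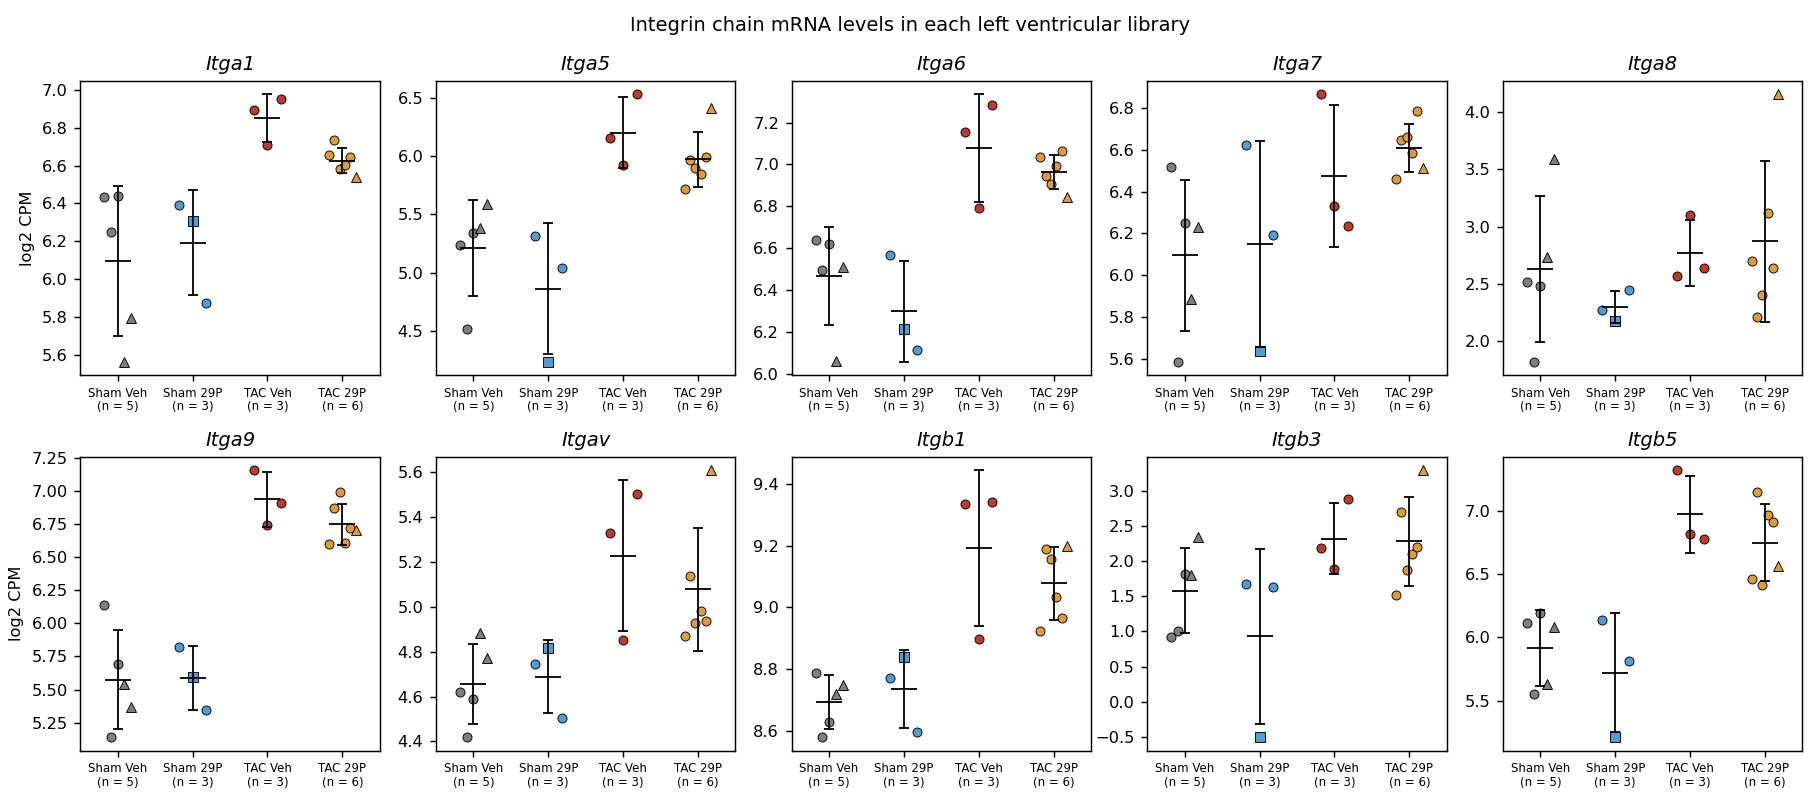
Log2 CPM (y axis, a separate scale in each panel) of each integrin chain in the 17 libraries by group, with the group mean and SD as bars; triangles are the 3 libraries with atrial transcripts and the square is Sham 29P library 14. Sham and TAC points are fully apart for Itga1, Itga5, Itga6, Itga9, Itgb1 and Itgb5, and the square lies lowest of all for Itga5, Itgb3 and Itgb5.

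Over all 9 TAC and 8 Sham libraries, Itga1, Itga5, Itga6, Itga9, Itgb1 and Itgb5 did not overlap, 6 of 10 chains against 9.52% of all genes that were higher without overlap. After TMM scaling this held for Itga5, Itga9 and Itgb5, 3 of 10 against 1.74% of all genes. The 4 runs of description numbers, whose meaning the labels do not give, hold unequal shares of TAC and Sham libraries (6 and 3, 1 and 2, 1 and 1, and 1 and 2). They mix treatments, and the run with 1 and 1 sets a TAC Veh against a Sham 29P library. The last run holds only the 3 libraries with atrial transcripts. TAC exceeded Sham in all 4 runs for each of the 10 chains in the deposited values, as it did for 54.4% of all genes. After TMM scaling this held for 5 of 10 (Itga5, Itga6, Itga9, Itgb3 and Itgb5) against 21.3% of all genes, and for the other 5 in 3 of 4 runs.

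A ratio of chains within a library does not depend on how libraries are scaled. Itga9 mRNA per kb was 4.89% to 8.44% of Itgb1 mRNA in Sham Veh and 5.57% to 6.87% in Sham 29P. It was 9.82% to 11.9% in TAC Veh and 9.42% to 11.8% in TAC 29P. All 9 TAC libraries lay above all 8 Sham libraries, with a rise of 0.86 in Veh and 0.82 in 29P mice on the log2 scale. Itga9 also rose against Itga7, the muscle laminin chain, and 8 of 9 TAC libraries lay above every Sham library. The ratios of Itga1, Itga6, Itga7, Itga8 and Itgav to Itgb1 differed between TAC and Sham means by -0.36 to 0.32 on the log2 scale, with overlapping libraries, and those of Itga7, Itga8 and Itgav changed sign when 1 library was left out. Itga5 against Itgb1 was higher by 0.49 in Veh and 0.77 in 29P mice, and 4 of 9 TAC libraries lay above every Sham library. Itgb5 against Itgav was higher by 0.48 and 0.64, with 5 of 9 above. For Itgb3 against Itgav the difference was 0.17 in Veh mice and 0.96 in 29P mice, and 1 of 9 lay above. The 29P differences of these 3 ratios leaned on Sham 29P library 14 and were 0.40, 0.32 and 0.17 without it. The Veh difference of Itgb3 against Itgav lay between 0.0122 and 0.33 with each library left out. No p-value is given for these ratios, which were examined with the single changes known.

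**Figure D4:**
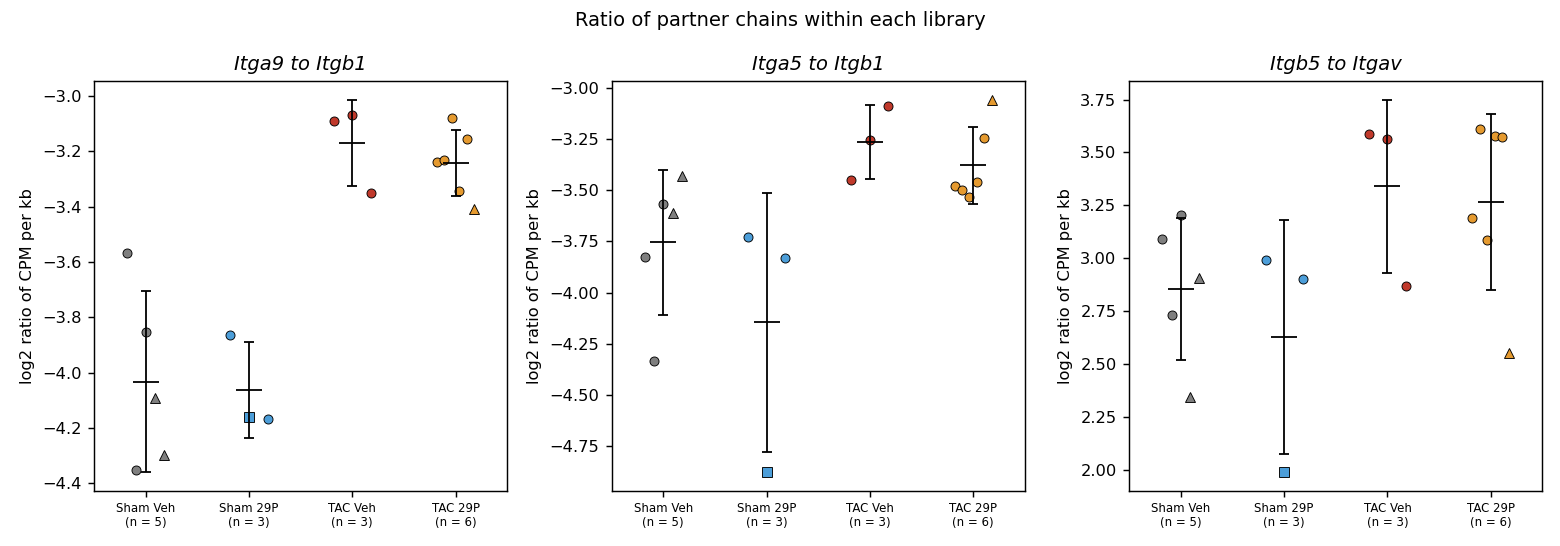
Log2 ratio of CPM per kb (y axis) of Itga9 to Itgb1, Itga5 to Itgb1 and Itgb5 to Itgav in each library by group, with mean and SD; triangles are the libraries with atrial transcripts and the square is Sham 29P library 14. The Itga9 ratio runs from -4.35 to -3.57 in Sham and from -3.41 to -3.07 in TAC without overlap, while the other 2 ratios overlap.

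29P itself was followed by no called change in any of the 10 chains. Within TAC, 0 of 10 passed the limma adjusted threshold, as did 0% of all genes, and 0 passed an unadjusted p of 0.05 or less, against 1.98% of all genes. The log2 fold changes of TAC 29P against TAC Veh ran from -0.23 (Itga5, Itga1 and Itgb5) to 0.13 (Itga7). For Itgb3 it was -0.04 with a 95% interval of -1.02 to 0.94, and for Itgav -0.15 with an interval of -0.50 to 0.20, so changes of these sizes could not be told from none. Itgb1 had the narrowest interval, from -0.34 to 0.11. Itga1 was 93.1 to 106 CPM in TAC 29P against 105 to 124 CPM in TAC Veh. In 5 of 6 TAC 29P libraries it lay below every TAC Veh library, and the exact two-sided permutation p was 0.0238, unadjusted for 10 genes, where limma gave an unadjusted p of 0.194. Over the 4 runs the TAC 29P libraries numbered 5, 0, 0 and 1 and the TAC Veh libraries 1, 1, 1 and 0. The permutation did not take these runs into account. Within Sham, 0 of 10 passed the adjusted threshold (0.00617% of all genes did) or an unadjusted p of 0.05 or less (7.49% of all genes). The log2 fold changes ran from -0.65 for Itgb3 (95% interval -1.66 to 0.37), which became 0.07 without library 14, to 0.09 for Itga1. The rise after TAC was also compared between 29P and Veh mice directly, and for 0 of 10 chains did it differ by the adjusted (0.00617% of all genes) or the unadjusted threshold (2.84%). The difference was 0.61 for Itgb3 (95% interval -0.80 to 2.01), which turned to -0.11 without Sham 29P library 14, and -0.32 for Itga1 (interval -0.83 to 0.19).

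The remaining integrin chains are mostly those of leukocytes, epithelia and fibroblasts. Of 16 such chains 15 could be tested, and 7 rose in TAC Veh against Sham Veh with the limma adjusted threshold, or 2 after TMM scaling (22.5% and 4.22% of all genes). In TAC 29P against Sham 29P it was 9 of 15, or 3 after TMM scaling (31.4% and 5.86% of all genes). The 2 called after TMM scaling in Veh mice were Itga11, a collagen receptor chain of fibroblasts, and Itgal, the α chain of the leukocyte receptor LFA-1. In the deposited values their log2 changes were 1.69 (limma adjusted p = 0.00981) and 1.65 (adjusted p = 0.00919). After TMM scaling they were 1.37 (adjusted p = 0.0206) and 1.33 (adjusted p = 0.0254). Itgax and Itgb7, both leukocyte chains, had 1.49 and 1.46 in the deposited values. Neither was called after TMM scaling (limma adjusted p = 0.111 and 0.109). Itga11 rose from 1.78 ± 0.657 CPM (SD, n = 5) to 5.36 ± 0.868 CPM (n = 3).

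Many of the matrix proteins that these receptors bind were also higher after TAC. Of all genes, 22.5% were called higher in TAC Veh against Sham Veh, or 4.22% after TMM scaling. For α9β1, 3 of 4 ligands rose under both scalings in TAC Veh against Sham Veh: Svep1 by 2.43, Tnc (tenascin-C) by 2.43 and Emilin1 by 1.61 on the log2 scale (limma adjusted p = 0.000321, 0.0128 and 0.00348). A list of 12 ligands of RGD-binding integrins was also taken, not all of which carry the RGD motif themselves. Of these 12, 7 rose, or 4 after TMM scaling. Among the 7 were Postn (periostin) by 3.43 (limma adjusted p = 0.000372), Tnc, Ccn2 by 2.06 (adjusted p = 0.0319) and Fbn1 (fibrillin-1) by 1.93 (adjusted p = 0.00137). Ccn2 was not called after TMM scaling (1.74, adjusted p = 0.0970). Of 6 collagens 5 rose under both scalings, led by Col1a1 with 2.09 and Col3a1 with 1.74. Of 10 laminin chains 5 rose, or 4 after TMM scaling, by less: Lamc1 by 0.91, Lama3 by 0.90, Lama2 by 0.74 and Lamb1 by 0.72, of which Lama3 was lost. The median log2 fold change was 2.40 for the α9 ligands, 1.87 for the ligands of RGD-binding integrins, 1.59 for the collagens and 0.71 for the laminins, beside 0.35 for all genes.

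Inside the cell, integrins are switched on by talin and kindlin and joined to actin by a set of linker proteins. Of 19 such activators and linkers 11 rose in TAC Veh against Sham Veh, or 4 after TMM scaling, the latter Tns3, Actn1, Tln1 and Parva. The share of all genes called higher in this comparison was 22.5%, or 4.22% after TMM scaling. The largest changes were those of Parvg (1.46), Tns3 (1.08), Actn1 (1.05) and Fermt3 (1.001). Itgb1bp2 (melusin), a muscle protein that binds the β1 tail, was lower after TMM scaling with -0.57 (limma adjusted p = 0.00497), and had -0.25 (adjusted p = 0.0888) in the deposited values. Of 9 signalling kinases and scaffolds 6 rose, or 1 (Shc1) after TMM scaling. The largest among those called was Ptk2b with 0.81, while Src had 1.24 just outside the threshold (limma adjusted p = 0.0507). Ptk2 (focal adhesion kinase) had 0.40 (adjusted p = 0.0236), or 0.08 after TMM scaling. Of 6 inhibitors of integrin activation 3 rose (Dok1, Flna and Kank2), and 0 after TMM scaling. In TAC 29P against Sham 29P, 9 of 12 ligands of RGD-binding integrins, 3 of 4 α9 ligands, 5 of 6 collagens, 12 of 19 activators and linkers and 8 of 9 kinases and scaffolds rose, or 5, 3, 5, 5 and 2 after TMM scaling. Of all genes, 31.4% were called higher there, or 5.86% after TMM scaling. With 29P within TAC, 0 genes of these lists passed the adjusted threshold, as did 0% of all genes. Postn (-0.93, limma unadjusted p = 0.0401) and Svep1 (-0.78, unadjusted p = 0.0159) were below the unadjusted threshold, as were 1.98% of all genes. Both are named after their values were seen.

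Markers of some other cell types were also higher after TAC. Of all genes, 22.5% were called higher in Veh and 31.4% in 29P mice, or 4.22% and 5.86% after TMM scaling. The summed CPM of 5 macrophage genes was 89.2 to 128 in Sham Veh and 172 to 271 in TAC Veh, and 77.7 to 154 in Sham 29P and 169.95 to 213 in TAC 29P. In both comparisons 5 of 5 rose with the limma adjusted threshold, or 1 in Veh and 4 in 29P mice after TMM scaling. For 5 fibroblast genes the sums were 1085 to 2054 and 1881 to 2253 in Sham and TAC Veh (2 of 5 rose), and 895 to 1329.6 and 1402 to 2435 in Sham and TAC 29P (4 of 5). For 5 endothelial genes they were 506 to 909 and 896 to 1175 in Veh (1 of 5), and 425 to 846 and 753 to 1156 in 29P mice (4 of 5). Of 6 smooth muscle and pericyte genes 1 rose in each comparison, with sums of 1044 to 1418 and 1301 to 1747 in Veh and 1173 to 1400.3 and 1369 to 1553 in 29P mice. After TMM scaling the genes of these 3 lists that rose were 0 in Veh mice and, in 29P mice, 1 of the 5 fibroblast genes. Of 7 ventricular cardiomyocyte genes 0 rose in Veh and 1 in 29P mice, and 2 and 1 fell after TMM scaling. Red blood cell genes were 1009 to 2438 CPM in Sham Veh and 3052 to 4933 in TAC Veh (4 of 4 rose, 0 after TMM scaling), and 555 to 1663 and 1027 to 4118 in 29P mice (0 of 4).

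Platelets also carry Itgb3, and the sum of 3 platelet genes was 10.2 to 28.5 CPM in Sham Veh and 14.97 to 23.6 in TAC Veh, where 0 of 3 rose. In 29P mice, where Itgb3 was called, it was 9.30 to 16.2 in Sham and 13.99 to 53.3 in TAC, lowest in library 14 and highest in library 18, as for Itgb3. There 1 of the 3 platelet genes rose, or 0 after TMM scaling (31.4% and 5.86% of all genes). It was Pf4, with 0.66 on the log2 scale (limma adjusted p = 0.0317), or 0.32 after TMM scaling (adjusted p = 0.340). Itga2b, the platelet α chain that pairs with β3, rose by 2.24 (limma adjusted p = 0.0255), or 1.90 after TMM scaling (adjusted p = 0.0721). Both are named after their values were seen. The 3 T cell genes summed to 0.0999 to 0.475 CPM in Sham Veh and 0.587 to 2.54 in TAC Veh, and to 0.141 to 0.293 and 0.536 to 1.05 in 29P mice. Only Cd3g passed the filter on low values, with 3.94 in Veh mice (limma unadjusted p = 0.0465, adjusted p = 0.116), and each of the 3 was at 0 in some libraries. The part of these cell types in the changes of the integrin chains was not tested.

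Some pairs of chains also varied together between libraries of the same group, while others did not. Pearson's r over the 17 libraries was taken after subtracting group means. Its highest values were 0.88 for Itga5 and Itgb3, 0.83 for Itga7 and Itgb5, 0.79 for Itgav and Itgb1 and 0.77 for Itga1 and Itga6. After TMM scaling these pairs had 0.86, 0.67, 0.79 and 0.77. The partner chains Itgav and Itgb5 had an r of -0.01, or -0.43 after TMM scaling. Itga1 and Itgb3 had an r of -0.31, or -0.56 after TMM scaling. These are descriptions across libraries that share depth, dissection and scaling, and libraries 14, 18, 19 and 20 lie at the edges for several chains. Among 14054 genes with a mean CPM of at least 1, the patterns most like Itgav were those of Rnd3 (r = 0.97) and Pde3b (0.94), and like Itga5 those of Flna (0.94), the actin cross-linker that binds β chain tails, and Slc15a4 (0.94). For Itgb1 they were Actr2 (0.92), a subunit of the Arp2/3 complex, and Psmd11 (0.91), for Itga9 Fbxo40 (0.93) and Aqr (0.91), and for Itgb5 Tapbp (0.96) and Rarg (0.94). For Itga7 they were Ankfy1 (0.97) and Tom1l2 (0.96), and for Itga1 6430562O15Rik (0.94) and Kit (0.92). For the scarce chains they were Lemd3 (0.92) and Cacna1d (0.92) for Itga8, and Srfbp1 (0.95) and Txndc12 (0.94) for Itgb3.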

How the data were processed

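RNA from left ventricular apex was extracted with TRIzol and prepared as polyA libraries (NEBNext Ultra II). Per the labels, STAR 2.3.7 and Partek were used with mm10, and the authors deposited CPM values with 0.0001 added. The counting tool, strand setting and gene filter are not given in the sources used here. Only 76.6 to 79.7% of low values were whole multiples of the step between them (tolerance 0.02), so read counts were not restored and depths are estimates.

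Log2 of the deposited values was fitted with limma 3.58.1 (R 4.3.3, 1 mean per group, 17 libraries, 13 residual degrees of freedom, variance trend) for 16218 genes with CPM of at least 0.5 in at least 3 libraries. Calls used a Benjamini-Hochberg adjusted p of 0.05 over all genes, with the unadjusted p of 0.05 that the study states beside it. TMM factors (trimming 30% of log ratios) were computed on the same values. Exact permutations were two-sided, computed in Python 3.11.15. The fit was tested on simulated data. Up to 4 genes of each other list are named, those with the largest change among called genes in TAC Veh against Sham Veh, and for each integrin chain the 2 genes of highest r, which for Itga6 are not reported here. The integrin chains and lists were chosen with earlier results of these data known. Each library is taken as 1 mouse, as the labels number them. The authors removed 3 libraries, which are not analysed here. Of these, 1 TAC Veh library was taken out because it clustered with Sham mice in a principal component analysis. The TAC Veh group was thus chosen in part by its expression, which can widen its distance from Sham.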

Additional observations from a re-analysis of the deposited data

Results flagged for a closer look

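In groups of 5 and 6 libraries, the gap of the most extreme library to its nearest neighbour was set against the range of the group for each of the 10 chains, 20 groups in all, of which chance alone marks about 1 in 20. In Sham Veh, Itga6 was 6.06 log2 CPM in library 19, with the next lowest library at 6.49. In TAC 29P, Itgav was 5.61 log2 CPM in library 18, with the next highest library at 5.14. Both are among the 3 libraries with atrial transcripts, and the part of these transcripts in the values was not tested.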

How the results depend on the processing

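No paired analysis was possible because the library numbers in the labels are unique and no group shares them with another, and the run of description numbers was instead used as a covariate. In TAC Veh against Sham Veh, where 7 chains were called, the count was 3 with TMM factors, with median-of-ratios factors, and with TMM factors combined with the run as a covariate, without library 14 or without the 3 libraries with atrial transcripts. Those 3 were Itga5, Itga9 and Itgb5 each time. Leaving out each library in turn gave 1 to 7. In TAC 29P against Sham 29P, where 6 were called, it was 3 with TMM factors, median-of-ratios factors, the run as a covariate, or TMM factors without the atrial libraries, 1 with TMM factors and the run (Itga5), and 1 with TMM factors without library 14 (Itga9). Leaving out each library gave 4 to 8. The 0 called in each of the 3 other comparisons stayed 0 throughout (0 to 0 with each library left out).

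Of 1023 single values under alternatives, 924 kept direction and side of the threshold, 62 lost the call, 11 gained it and 26 changed sign. The changes of sign were these. For Itga8 after TAC in Veh mice the value was -0.18 with TMM factors (also without library 14) and with median-of-ratios factors, -0.0147 with totals without mitochondrial genes, and -0.0614 to 0.38 with each library left out. After TAC in 29P mice, Itgb1 was -0.0040 with TMM factors, -0.0169 with median-of-ratios factors, -0.0181 with TMM factors and the run, and -0.0225 with TMM factors without the atrial libraries. With TMM factors Itga7 was -0.0424 with the run and -0.0644 without library 14, and without the atrial libraries Itga8 was -0.0259 and Itgav -0.0590. Within TAC, 29P gave -0.0786 for Itga7 with the run, 0.0315 for Itgb3 with TMM factors and the run, -0.16 for Itga8 without the atrial libraries, or -0.12 with TMM factors as well. With each library left out, it gave -0.25 to 0.24 for Itgb3 and -0.16 to 0.27 for Itga8. For Itgb3 without library 14, 29P within Sham gave 0.0742 (0.0464 with TMM factors, and -1.01 to 0.0742 with each library left out), and the difference between the TAC effects was -0.11 (-0.0586 with TMM factors, and -0.11 to 0.97). The cause was not tested. Itgb3 held about 10 to 156 reads per library, and the part of counting error in its values was not tested.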
